A study of Wolfiporia cocos with 12 samples.

Results

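Gene models for lipases and for enzymes of fatty acid metabolism were followed in *Wolfiporia cocos* strain MD-104, a basidiomycete that causes brown rot of wood. They were chosen by the InterPro label of each model, which had to hold the words lipase, acyl-CoA, enoyl-CoA, crotonase, 3-hydroxyacyl-CoA, thiolase, fatty acid, or carboxylesterase of type B. This gave 93 of the 12746 models in the deposited table. Strain MD-104 was grown in shaken liquid culture on 1 of 4 carbon sources, with 3 cultures per carbon source, and harvested after 5 days, per the labels. The carbon sources were glucose, microcrystalline cellulose (Avicel), milled aspen (*Populus grandidentata*) and milled lodgepole pine (*Pinus contorta*), the woods at 0.5% w/v as the only carbon source in 250 ml of basal salts and the other 2 in media described as defined. All cultures were of the same strain, with no other treatment in the labels. Sequencing lane 1 held the libraries of glucose and Avicel, and lane 2 held those of both woods, so in every comparison of wood with glucose or Avicel the lane and the medium cannot be told apart.

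Lipases split triacylglycerols into fatty acids and glycerol, phospholipases cut membrane lipids, and carboxylesterases of type B are a broad family of ester-cleaving enzymes with the same protein fold as many lipases. Fatty acids are activated to acyl-CoA and broken down by β-oxidation, in which an acyl-CoA dehydrogenase or oxidase, an enoyl-CoA hydratase of the crotonase fold, a 3-hydroxyacyl-CoA dehydrogenase and a thiolase act in turn. Desaturases put double bonds into fatty acids, which sets the fluidity of membranes, and wood carries triacylglycerols and fatty acids among its extractives.

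The values are RPKM (reads per 1e6 reads and per kilobase of model), which measure a model's share of the RNA in a culture, so less transcript per cell and fewer cells using a gene cannot be told apart. Spacing of the low values put the depth, in 1e6 reads, between 9.8 (Avicel replicate 3) and 22.5 (aspen replicate 1), and 3 reads in a model of 1 kb then equal 0.133 to 0.305 RPKM, a floor that covers counting error only. Both figures assume that the values are scaled per 1e6 reads, and the labels and headers do not name the read total used for scaling. The value of 1 read was taken from a spacing whose first 3 positions held 68 to 92 models per library, where 0 to 4 models lay at the first position of a spacing 2 times finer. Of the 93 members, 16 had a mean over the 12 libraries above 100 RPKM, 48 lay between 10 and 100 RPKM, and 29 lay below 10 RPKM. A model was tested where at least 1 medium had a mean of at least 1 RPKM, which 86 members passed. The 7 untested members had means of at most 0.687 RPKM, and 2 of them, carboxylesterase 20391 and crotonase-fold model 69790, were listed at 0 in all 12 libraries. Another model overlapped 25 of the members on the scaffold, and because no source used here gives the strand used in counting, reads of overlapping models may be shared. Near-identical copies could share reads as well, which was not tested.

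A member was called where the limma test on log2(RPKM + 1) gave a Benjamini-Hochberg adjusted p under 0.05 over all 10184 tested models and the change was at least 2-fold. On aspen against glucose, 19 of the 86 tested members were called (22.1%), 11 higher and 8 lower on aspen, where 11.8% of all tested models were called (5.24% higher and 6.56% lower). On pine against glucose, 16 were called (18.6%), 11 higher and 5 lower on pine, again against 11.8% of all tested models (5.61% higher and 6.2% lower). The median log2 change of the members was 0.075 on aspen and 0.091 on pine, and that of all tested models was -0.115 on aspen and -0.137 on pine. With every library centred on its median, which removes that shift, the split of the members was 13 higher and 6 lower on aspen and 12 higher and 4 lower on pine. The split of all tested models under that centring was 605 higher and 566 lower on aspen and 647 higher and 530 lower on pine, where it was 534 and 668 on aspen and 571 and 631 on pine without centring.

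Avicel against glucose gave no called member, where 1.67% of all tested models were called (0.962% higher and 0.707% lower), and 21 of the 86 members had an unadjusted p under 0.05 by limma. The share of all tested models at that unadjusted cut-off was not computed, so the 21 cannot be set against the 1.67%. Pine against aspen likewise gave none, where 0.157% of all tested models were called (0.137% higher and 0.0196% lower). By limma, 12 members had an unadjusted p under 0.05, again without a share of all tested models to set beside it. Against Avicel, 9 members were called on aspen (5 higher and 4 lower, where 7.23% of all tested models were called, 3.51% higher and 3.72% lower) and 12 on pine (7 higher and 5 lower, where 9.02% of all tested models were called, 4.56% higher and 4.47% lower). These wood comparisons share their glucose or Avicel libraries, so the counts on aspen and pine are not independent of each other. By an F test over the 4 media, 40 of the 86 members differed at an adjusted p under 0.05 (46.5%), against 29.3% of all tested models. That count fell to 26, 24 and 26 members without glucose replicate 1, 2 and 3. Without aspen replicate 1, 2 and 3 it was 29, 32 and 29. Without those of Avicel it was 36, 34 and 37, and without those of pine 32, 37 and 34. No share of all tested models is given for these fits, so a trait of the members cannot be told apart from the effect of fewer libraries.

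**Figure D1:**
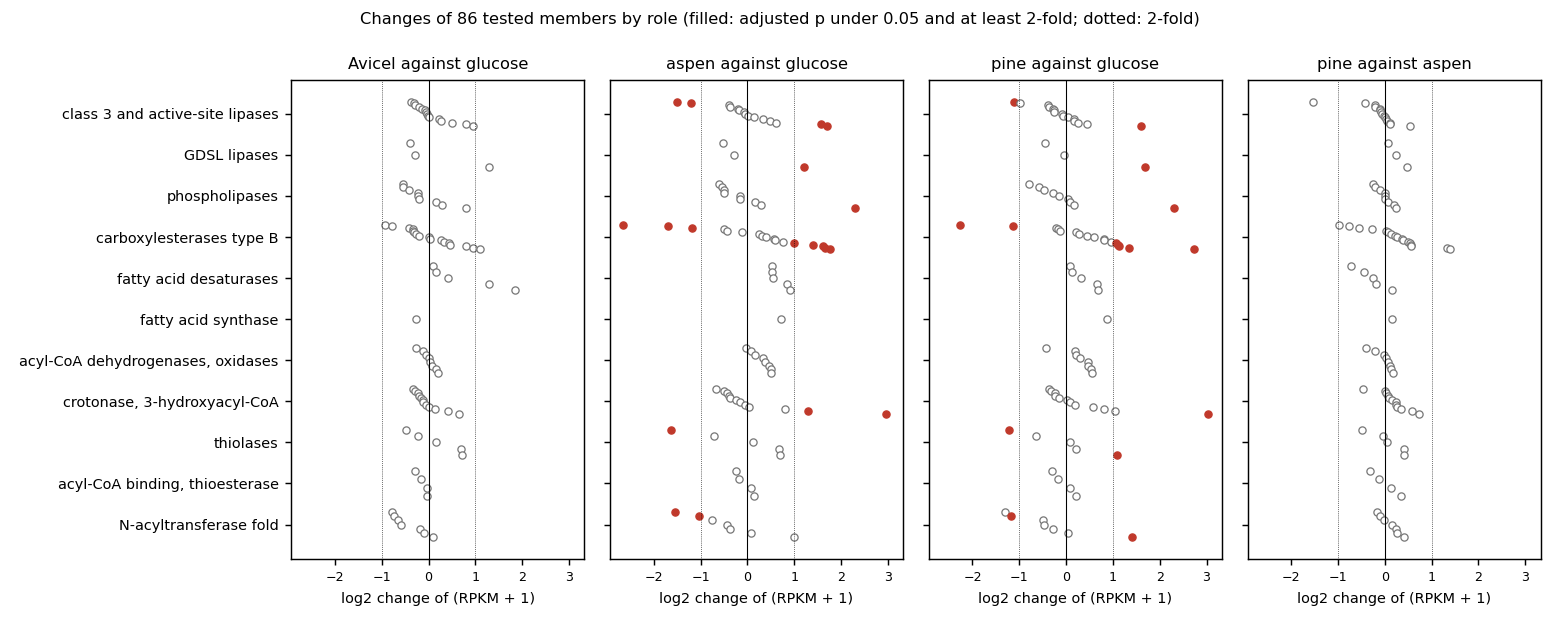
Log2 change of (RPKM + 1) of each tested member (x axis) by enzyme role (y axis) in 4 comparisons, each point being 1 of the 86 tested members and dotted lines marking a 2-fold change. Filled points are called members, 19 on aspen against glucose and 16 on pine against glucose, and none is filled for Avicel against glucose or pine against aspen.

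Lipases other than phospholipases and GDSL lipases made up 16 members, 11 with a class 3 lipase label and 5 with a lipase active-site label. The class 3 lipase 136660 (scaffold 3, 1741325 to 1745117, plus strand; a family of triacylglycerol lipases) had the highest level of all 93 members. Its RPKM in the 3 libraries was 442, 628 and 434 on glucose, 1045, 968 and 852 on Avicel, 1641, 1649 and 1178 on aspen and 1554, 2425 and 881 on pine. Every Avicel, aspen and pine library lay above every glucose library, while pine replicate 3 fell inside the Avicel range. The log2 change against glucose was 1.57 (SE 0.32, adjusted p = 0.00366) on aspen and 1.59 (SE 0.32, adjusted p = 0.00344) on pine. The Avicel difference of 0.94 (SE 0.32, adjusted p = 0.11) did not pass the test.

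Much of the lipase transcript came from this single model. It made up 49.6 to 60.9% of the summed RPKM of the 16 lipases in the glucose libraries, 67.1 to 68.7% in the Avicel libraries, 73.5 to 77.2% in the aspen libraries and 70.5 to 84.2% in the pine libraries. The shares in the wood libraries did not overlap with those on glucose or Avicel. The next lipase by level, class 3 model 139065, had a mean of 122 RPKM over the 12 libraries and was called in no comparison.

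The other called lipases had low levels. Class 3 lipase 123737 read 11.3, 8.12 and 6.89 RPKM on glucose, 7.36, 7.51 and 20.9 on Avicel, 3.10, 3.72 and 2.68 on aspen and 4.42, 2.04 and 4.40 on pine. All wood libraries were below all glucose and Avicel libraries. It fell against glucose by a log2 change of -1.21 (SE 0.36, adjusted p = 0.0272) on aspen and -1.10 (SE 0.36, adjusted p = 0.0395) on pine. The aspen call did not survive leaving out glucose replicate 1 or 2 or any 1 aspen replicate (log2 change between -1.303 and -1.03, adjusted p from 0.0526 to 0.101), and the pine call did not survive leaving out any 1 glucose replicate, aspen replicate 1 or 3, or pine replicate 2 (log2 change from -1.25 to -0.83, adjusted p from 0.051 to 0.146). With median centring, quantile normalization or no filter on low values the pine call was lost too.

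Class 3 lipase 105282 measured 5.64, 2.45 and 3.26 RPKM on glucose, 1.28, 3.31 and 3.49 on Avicel, 1.01, 0.878 and 0.118 on aspen and 1.56, 1.14 and 1.31 on pine. Aspen replicate 3 was below the level that 3 reads in 1 kb would give, and all aspen libraries lay below all glucose and Avicel libraries. The log2 change was -1.51 (SE 0.32, adjusted p = 0.00517) on aspen, which was called, and -0.98 (SE 0.32, adjusted p = 0.0409) on pine, which was under the 2-fold limit.

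Lipase active-site model 130127 was the lipase for which aspen and pine differed most. It read 1.23, 1.27 and 2.26 RPKM on glucose, 1.40, 2.88 and 8.53 on Avicel, 11.6, 4.81 and 6.73 on aspen and 1.88, 1.99 and 1.67 on pine, with all aspen libraries above all pine and glucose libraries. The log2 change against glucose was 1.70 (SE 0.42, adjusted p = 0.0125) on aspen and 0.16 (SE 0.42, adjusted p = 0.811) on pine, but the difference between pine and aspen, -1.54 (SE 0.42, adjusted p = 0.3), did not pass the test. The aspen call did not survive leaving out aspen replicate 1 (log2 change 1.40, adjusted p = 0.0507), and an RNA recognition motif model on the opposite strand overlaps this model by 880 bp. Of the 15 tested lipases, 11 were called in neither wood against glucose.

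The 9 phospholipase members held 1 called model. Lysophospholipase 22757 (scaffold 2, 208700 to 212543, minus strand), whose family removes the remaining fatty acid from a lysophospholipid, read 21.5, 18.5 and 25.6 RPKM on glucose, 47.0, 46.3 and 25.8 on Avicel, 119, 126 and 89.1 on aspen and 83.6, 196 and 82.0 on pine. All 6 wood libraries were above the other 6, and Avicel replicate 3 was close to the highest glucose library. The log2 change in level was 2.29 (SE 0.33, adjusted p = 0.000379) on aspen and 2.29 (SE 0.33, adjusted p = 0.000359) on pine against glucose, and 1.50 (SE 0.33, adjusted p = 0.0099) and 1.50 (SE 0.33, adjusted p = 0.00807) against Avicel, each of them called. The model overlapping it on the opposite strand was listed at 0 on all media. Phospholipase D 29360, which cuts the head group from a phospholipid and had the highest level of the 9, averaged 183 ± 31.5 RPKM (SD, n = 3) on glucose and 129 ± 11.0 RPKM (SD, n = 3) on aspen, a log2 difference of -0.49 (SE 0.14, adjusted p = 0.0229) that was under 2-fold. The other 7 phospholipases had log2 differences between -0.80 and 0.30 on the woods against glucose.

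GDSL lipases, named after a motif of the catalytic serine, were 3 members, of which 1 was called. Model 135938 read 19.8, 24.6 and 21.2 RPKM on glucose, 27.2, 53.2 and 110.2 on Avicel, 42.9, 55.2 and 58.1 on aspen and 76.6, 86.0 and 57.2 on pine. Every library on the other media exceeded every glucose library, and the 3 Avicel libraries spread over the whole range of the woods. Its change on the log2 scale was 1.21 (SE 0.37, adjusted p = 0.033) on aspen and 1.69 (SE 0.37, adjusted p = 0.00668) on pine, and the Avicel difference of 1.28 (SE 0.37, adjusted p = 0.0798) was not called, though it was called without Avicel replicate 1 (1.77, adjusted p = 0.0105). The aspen call did not survive leaving out any 1 glucose replicate or without aspen replicate 2 or 3 (adjusted p from 0.0615 to 0.0952). The other GDSL lipases, 136306 and 135964, were called in no comparison.

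Carboxylesterases of type B were the largest group, with 20 members, 17 of them tested. On aspen against glucose 5 were higher and 3 lower, and on pine 5 were higher and 2 lower. The most abundant, 134709, was called in no comparison with all libraries, and its libraries ranged from 249 RPKM (glucose replicate 1) to 842 RPKM (glucose replicate 3), both on glucose. Its difference on aspen against glucose was 0.59 (SE 0.40, adjusted p = 0.31), and without glucose replicate 3 it was called higher (1.12, adjusted p = 0.0231). A model on the opposite strand overlaps 134709 by 442 bp.

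Among the abundant esterases, 22804 (scaffold 2, 337734 to 340198, minus strand) read 175, 179 and 250.5 RPKM on glucose, 151, 152 and 167 on Avicel, 359, 371 and 476 on aspen and 414, 498 and 407 on pine. All 6 wood libraries lay above the other 6, with no overlap. On the log2 scale the change was 1.00 (SE 0.17, adjusted p = 0.00123) on aspen and 1.14 (SE 0.17, adjusted p = 0.000498) on pine against glucose, and 1.34 (SE 0.17, adjusted p = 0.000456) and 1.48 (SE 0.17, adjusted p = 0.000143) against Avicel. On aspen the change against glucose sat at the 2-fold limit, and it was under that limit without glucose replicate 1 (0.91), glucose replicate 2 (0.93) or aspen replicate 3 (0.87), with adjusted p of at most 0.0079.

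Esterase 166132 (scaffold 11, 1023786 to 1025648, minus strand) had the largest rise among the esterases on pine against glucose. It read 2.75, 2.34 and 1.60 RPKM on glucose, 3.53, 5.41 and 4.94 on Avicel, 7.09, 9.01 and 6.53 on aspen and 18.7, 33.2 and 13.1 on pine. The 4 media formed separate ranges, rising from glucose to Avicel, aspen and pine. The log2 change against glucose was 1.41 (SE 0.29, adjusted p = 0.00395) on aspen and 2.73 (SE 0.29, adjusted p = 4.21e-05) on pine, and the Avicel difference of 0.80 (SE 0.29, adjusted p = 0.129) was not called. The difference between pine and aspen, 1.32 (SE 0.29, adjusted p = 0.138), did not pass the test with all libraries and did so without pine replicate 3 (1.61, adjusted p = 0.038). A LIM-type zinc finger model on the opposite strand overlaps 226 bp of it, with means between 15.6 and 17.3 RPKM on the 4 media.

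On scaffold 13, esterases 108309 and 140245 were higher on both woods than on glucose. Model 108309 read 4.09, 3.52 and 8.51 RPKM on glucose, 4.60, 5.04 and 2.46 on Avicel, 15.0, 13.0 and 27.2 on aspen and 17.7, 8.23 and 19.7 on pine. Its wood libraries were above the rest except for pine replicate 2, which was just under glucose replicate 3. The log2 change was 1.61 (SE 0.39, adjusted p = 0.0105) on aspen and 1.34 (SE 0.39, adjusted p = 0.0247) on pine. The pine call did not survive leaving out glucose replicate 1 or 2 or pine replicate 1 or 3 (adjusted p from 0.0757 to 0.0866).

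Model 140245 read 6.53, 5.68 and 8.58 RPKM on glucose, 16.3, 11.7 and 14.8 on Avicel, 18.9, 31.7 and 22.4 on aspen and 14.1, 30.5 and 9.09 on pine. All aspen libraries exceeded all glucose and Avicel libraries, and the pine libraries, all above glucose, overlapped with both Avicel and aspen. The log2 change in level was 1.66 (SE 0.34, adjusted p = 0.00459) on aspen and 1.11 (SE 0.34, adjusted p = 0.0343) on pine, and the latter did not survive leaving out glucose replicate 1 or 2 or pine replicate 1 or 2 (adjusted p from 0.0557 to 0.104).

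A further pair of esterases was called against glucose on 1 of the woods, without a called difference between the woods. Model 139807 averaged 60.1 ± 10.1 RPKM (SD, n = 3) on glucose, 89.7 ± 17.7 RPKM (SD, n = 3) on aspen and 129 ± 39.3 RPKM (SD, n = 3) on pine, a log2 change of 1.06 (SE 0.31, adjusted p = 0.0252) on pine. That call did not survive leaving out glucose replicate 1 or 3 or pine replicate 2 (adjusted p from 0.0668 to 0.0993). Model 164917 averaged 12.2 ± 3.58 RPKM (SD, n = 3) on glucose, 46.3 ± 22.9 RPKM (SD, n = 3) on aspen and 21.8 ± 4.12 RPKM (SD, n = 3) on pine, a log2 change of 1.77 (SE 0.44, adjusted p = 0.0129) on aspen that did not survive leaving out aspen replicate 2 (1.40, adjusted p = 0.0571). Their differences between pine and aspen were 0.49 (SE 0.31, adjusted p = 0.894) for 139807 and -0.97 (SE 0.44, adjusted p = 0.729) for 164917.

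Esterase 136531 (scaffold 3, 685133 to 687863, plus strand) was the strongest decrease among the members. It read 98.9, 153 and 58.9 RPKM on glucose, 31.9, 85.0 and 136 on Avicel, 17.5, 15.0 and 11.6 on aspen and 16.2, 30.5 and 14.5 on pine. All wood libraries were below all glucose and Avicel libraries, and the glucose and Avicel ranges overlapped. Its change on the log2 scale was -2.65 (SE 0.48, adjusted p = 0.00202) on aspen and -2.26 (SE 0.48, adjusted p = 0.00545) on pine against glucose, and -2.23 (SE 0.48, adjusted p = 0.00973) and -1.84 (SE 0.48, adjusted p = 0.0201) against Avicel. The pine call against Avicel did not survive leaving out Avicel replicate 2 or 3 or pine replicate 1 or 3 (adjusted p from 0.0583 to 0.0795).

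Esterase 95246 fell on both woods as well, from 12.6, 16.2 and 8.76 RPKM on glucose to 3.25, 2.97 and 2.95 on aspen and 6.74, 4.17 and 4.42 on pine. The glucose libraries did not overlap with those of either wood, and the Avicel libraries, at 3.07, 6.44 and 10.1 RPKM, overlapped with glucose and with both woods. On the log2 scale the change was -1.70 (SE 0.32, adjusted p = 0.0027) on aspen and -1.13 (SE 0.32, adjusted p = 0.0236) on pine, and the pine call did not survive leaving out glucose replicate 1 or 2 or pine replicate 2 or 3 (adjusted p from 0.0641 to 0.0857). Esterase 81934 was called lower on aspen, at 0.996 ± 0.339 RPKM (SD, n = 3) against 3.51 ± 0.338 RPKM (SD, n = 3) on glucose and 4.47 ± 2.05 RPKM (SD, n = 3) on pine. Its log2 change of -1.19 (SE 0.36, adjusted p = 0.0315) on aspen did not survive leaving out any 1 of the glucose or aspen replicates (adjusted p from 0.0522 to 0.0945), and its pine-aspen difference of 1.40 (SE 0.36, adjusted p = 0.246) was not called. Median centring and quantile normalization also removed the aspen call of 81934.

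**Figure D2:**
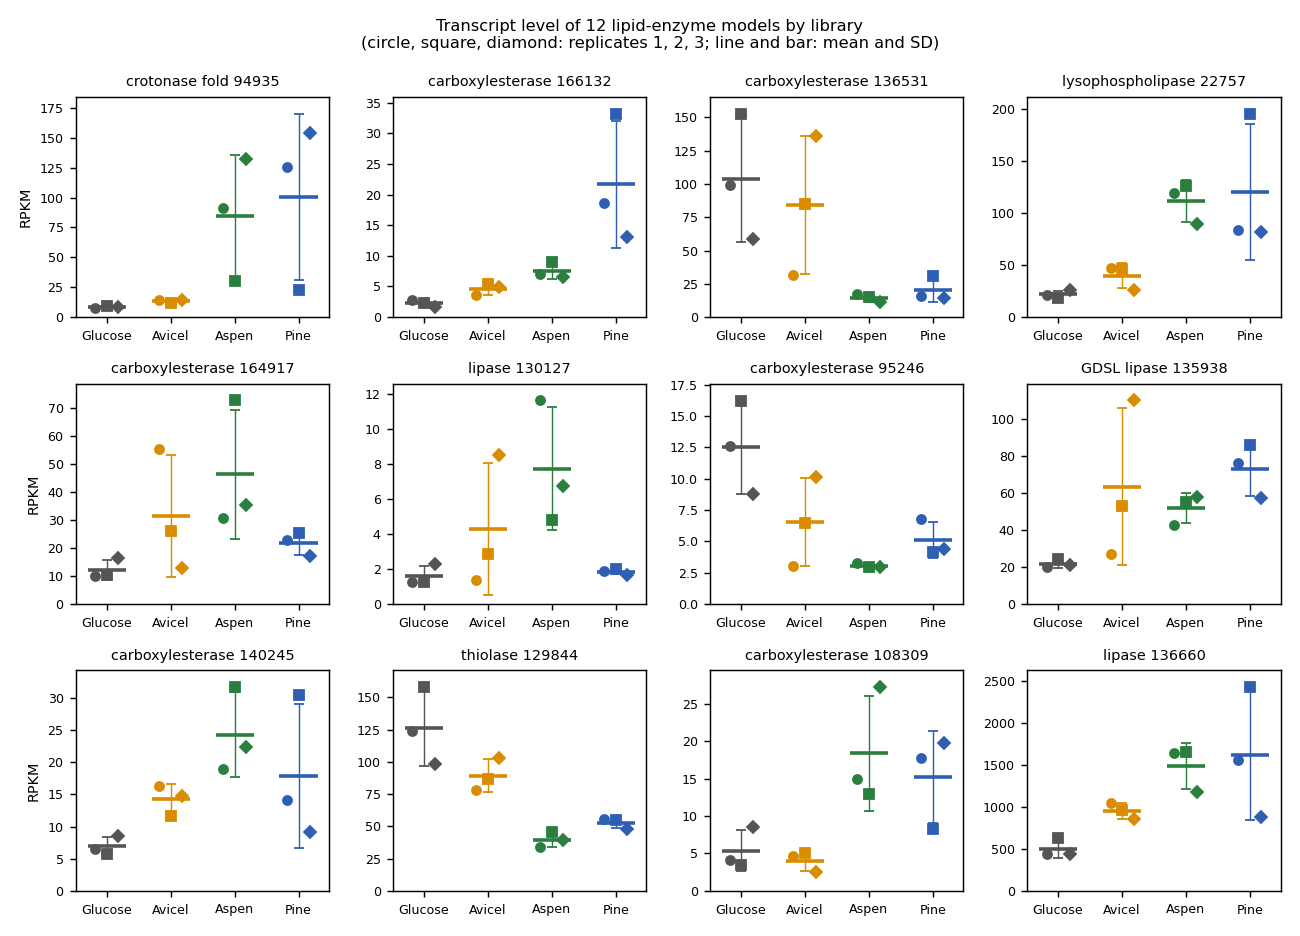
RPKM (y axis, scales differ between panels) of the 12 lipid-enzyme members with the largest called changes on wood against glucose, in each library by medium (x axis), where circles, squares and diamonds are replicates 1, 2 and 3 and the line and bar are the mean and SD of the 3 libraries. Lipase 136660, lysophospholipase 22757 and carboxylesterase 166132 were higher on both woods than on glucose in every library, esterase 136531 and thiolase 129844 were lower, and replicate 2 of both woods stands low for 94935.

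Of the 6 fatty acid desaturase members, 5 were tested, and 124504 and 136342 had the largest log2 differences between Avicel and glucose of all tested members. Desaturase 124504 (scaffold 9, 1972688 to 1975672, minus strand), the most abundant of them, read 359, 398 and 334 RPKM on glucose, 1179, 976 and 605 on Avicel, 837, 341 and 516 on aspen and 459, 290.2 and 433 on pine. Every Avicel library was above every glucose and pine library, and the aspen libraries spread from the glucose level to above Avicel replicate 3. The log2 difference between Avicel and glucose was 1.29 (SE 0.32, adjusted p = 0.0553), which did not pass the test. Pine against Avicel was -1.20 (SE 0.32, adjusted p = 0.0234), which was called.

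Desaturase 136342 (scaffold 2, 2876781 to 2879363, minus strand) had the same order of media. It read 108, 91.6 and 80.4 RPKM on glucose, 509, 429 and 176 on Avicel, 236, 114 and 178 on aspen and 167, 52.2 and 119 on pine. Again all Avicel libraries exceeded all glucose and pine libraries, and pine replicate 2 was the lowest of the 12. The log2 difference between Avicel and glucose was 1.85 (SE 0.45, adjusted p = 0.0509), not called, and that of pine against Avicel was -1.72 (SE 0.45, adjusted p = 0.0208), called.

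Both pairs of results lay close to the threshold. With each library centred on its median, Avicel against glucose was called for 136342 (2.02, adjusted p = 0.0321) and for 124504 (1.46, adjusted p = 0.0328). It was also called without Avicel replicate 3, the shallowest library, for 136342 (2.32, adjusted p = 0.0266) and 124504 (1.56, adjusted p = 0.0463). The call was made for 136342 without pine replicate 1 or 2 (adjusted p of 0.047 and 0.0242), and for 124504 without aspen replicate 1 or 2 or pine replicate 2 (adjusted p of 0.0364, 0.0365 and 0.0497). With only the 2 groups fitted, both were called (adjusted p of 0.0464 for 136342 and 0.0472 for 124504), and 136342 was also called with a pseudocount of 5 (adjusted p = 0.0461) or a minimum of 5 RPKM (adjusted p = 0.0469). Neither was called with quantile normalization, a pseudocount of 0.1 or no filter on low values. Nor was either called without any 1 glucose replicate, Avicel replicate 1 or 2, aspen replicate 3 or pine replicate 3. Conversely, the pine call against Avicel did not survive leaving out Avicel replicate 1 or 2 or pine replicate 2, with adjusted p from 0.0636 to 0.0721 for 136342 and from 0.0691 to 0.0858 for 124504.

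The other desaturases did not follow that order. Desaturase 140928 read 57.1, 47.1 and 48.8 RPKM on glucose, 90.1, 63.4 and 54.0 on Avicel, 107, 95.6 and 88.6 on aspen and 86.8, 69.2 and 87.5 on pine, and its log2 difference of 0.92 (SE 0.18, adjusted p = 0.00318) on aspen was under 2-fold. The log2 differences of 139187 and 23964 on the woods against glucose were between 0.32 and 0.68, and 98641 stayed below the level that was tested. Reads of 140928 and 139187 may be shared, since 140928 overlaps 2 other models and 139187 overlaps 1.

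**Figure D3:**
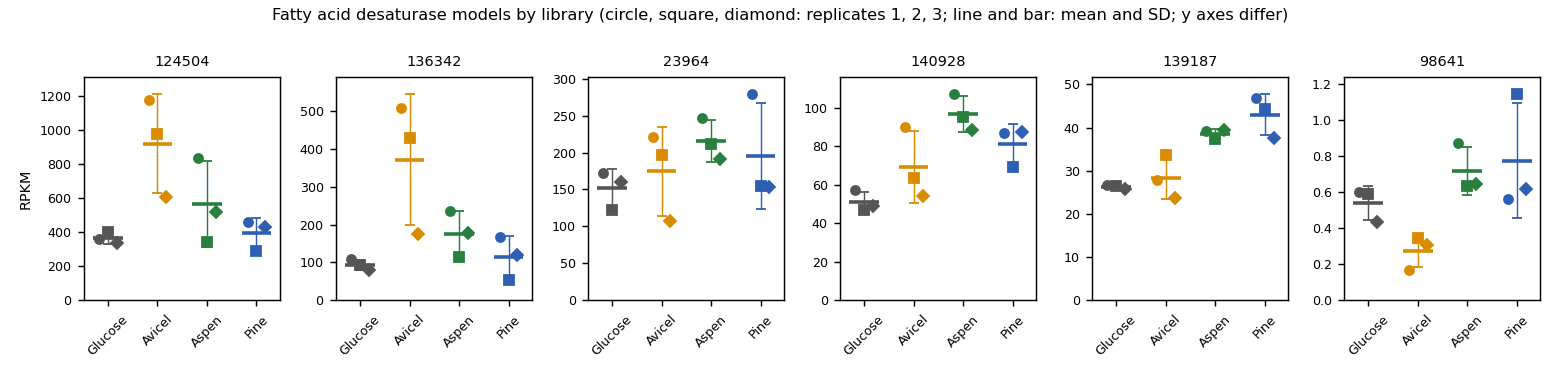
RPKM (y axis, scales differ between panels) of the 6 fatty acid desaturase members in each library by medium (x axis), where circles, squares and diamonds are replicates 1, 2 and 3 and the line and bar are the mean and SD. In 124504 and 136342 all 3 Avicel libraries lie above the glucose and pine libraries, and 98641 lies near 1 RPKM or lower throughout.

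Only model 165887 carried a fatty acid synthase label. It was a short model of 2859 bp with a low level, 3.15, 2.24 and 2.30 RPKM on glucose, 1.68, 1.91 and 2.20 on Avicel, 4.41, 3.77 and 6.64 on aspen and 4.49, 3.77 and 9.20 on pine. All wood libraries lay above all glucose and Avicel libraries. Pine against Avicel, 1.14 (SE 0.27, adjusted p = 0.0131), was the 1 comparison called, and it fell under 2-fold without pine replicate 3 (0.81, adjusted p = 0.0308).

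The first step of β-oxidation was represented by 9 acyl-CoA dehydrogenase or oxidase members, and none of the 8 tested was called in any comparison. Their median log2 difference was 0.353 on aspen and 0.379 on pine against glucose. The most abundant, 24712, read 156, 179.9 and 139.5 RPKM on glucose, 192, 183 and 157 on Avicel, 217, 192 and 202 on aspen and 219.6, 249 and 218 on pine. All wood libraries were above all glucose libraries, yet the difference was below 2-fold, with a log2 value of 0.37 (SE 0.13, adjusted p = 0.0586) on aspen and 0.53 (SE 0.13, adjusted p = 0.0114) on pine. Of the 8, 138247 was the single model with negative log2 differences on both woods, -0.03 on aspen and -0.42 on pine.

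The crotonase fold, which holds enoyl-CoA hydratases of the second step along with other enzymes, and 3-hydroxyacyl-CoA dehydrogenase, the third step, made up 13 members, 12 of them tested. Crotonase-fold model 94935 (scaffold 1, 3847710 to 3849810, minus strand) had the largest rise on wood of all members. It read 7.41, 9.04 and 8.84 RPKM on glucose, 14.5, 12.1 and 14.4 on Avicel, 90.9, 30.4 and 132 on aspen and 126, 22.5 and 154 on pine. Even the lowest wood library was above all glucose and Avicel libraries, and replicate 2 was low in both woods.

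The log2 change of 94935 against glucose was 2.95 (SE 0.64, adjusted p = 0.00567) on aspen and 3.04 (SE 0.64, adjusted p = 0.00492) on pine. Against Avicel it was 2.31 (SE 0.64, adjusted p = 0.0296) on aspen and 2.40 (SE 0.64, adjusted p = 0.0215) on pine. The call on aspen against Avicel did not survive leaving out any 1 Avicel replicate or aspen replicate 1 or 3 (adjusted p from 0.0517 to 0.111), and that on pine against Avicel did not survive leaving out Avicel replicate 2 or 3 or pine replicate 1 or 3 (adjusted p from 0.0554 to 0.0794). Pine replicate 2 was among the shallower libraries at 11.2, in 1e6 reads. Aspen replicate 2 had 15.4, and aspen replicate 3, where 94935 read highest on aspen, had 11.7. The part of depth in the low values was not tested.

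Crotonase-fold model 130286, with a much lower level, read 1.30, 1.09 and 1.40 RPKM on glucose, 1.33, 1.41 and 0.850 on Avicel, 4.09, 3.66 and 6.15 on aspen and 2.92, 2.24 and 4.01 on pine. No wood library overlapped with glucose or Avicel. It rose on aspen by a log2 change of 1.29 (SE 0.21, adjusted p = 0.000996) against glucose and 1.34 (SE 0.21, adjusted p = 0.00166) against Avicel, and the pine difference against glucose, 0.82 (SE 0.21, adjusted p = 0.0141), was under 2-fold on this scale. None of the other 10 tested models of this group was called. The most abundant of them, 22787, averaged 109 ± 7.52 RPKM (SD, n = 3) on glucose and 80.5 ± 13.0 RPKM (SD, n = 3) on aspen, and the only one with a 3-hydroxyacyl-CoA dehydrogenase label, 140052, had log2 differences of -0.25 and -0.23 on aspen and pine against glucose.

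Thiolases release acetyl-CoA in the last step, and other thiolases join acetyl-CoA units at the start of sterol synthesis. All 5 were well expressed, with means from 77.1 to 162 RPKM. Thiolase 129844 (scaffold 1, 2230519 to 2233432, minus strand) fell on wood, reading 124, 158 and 98.5 RPKM on glucose, 78.4, 86.6 and 103 on Avicel, 34.1, 45.5 and 39.2 on aspen and 55.5, 55.1 and 48.3 on pine. Aspen was below pine and both were below glucose and Avicel with no overlap. The log2 change was -1.64 (SE 0.18, adjusted p = 5.5e-05) on aspen and -1.22 (SE 0.18, adjusted p = 0.00043) on pine against glucose, and -1.16 (SE 0.18, adjusted p = 0.00149) on aspen against Avicel. The leucine-rich repeat model that overlaps it on the opposite strand had means between 11.7 and 13.5 RPKM on the 4 media.

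Thiolase 135018 (scaffold 1, 1147026 to 1149780, minus strand) went the other way. It read 62.7, 51.2 and 39.9 RPKM on glucose, 88.1, 67.3 and 92.8 on Avicel, 74.5, 89.4 and 81.7 on aspen and 118, 82.6 and 129 on pine, so that all libraries on the other media were above glucose. It rose on pine by a log2 change of 1.08 (SE 0.20, adjusted p = 0.00248), and its aspen difference of 0.68 (SE 0.20, adjusted p = 0.028) was under 2-fold. The pine change was also under 2-fold without glucose replicate 3 (0.92) or pine replicate 3 (0.95). An unlabelled model on the opposite strand overlaps 135018 by 474 bp. That model had means of 204 RPKM on glucose, 257 on Avicel, 132 on aspen and 173 on pine. These lay above every library of 135018, and whether reads are shared was not tested.

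The thiolase with the highest mean, 138750, read 154, 99.1 and 109 RPKM on glucose, 202, 206 and 175 on Avicel, 174, 249 and 167 on aspen and 154, 132 and 129.5 on pine. Aspen and Avicel were above glucose in all libraries, with a log2 difference on aspen of 0.70 (SE 0.19, adjusted p = 0.0188), under 2-fold. Thiolase 24556 had log2 differences under 2-fold of -0.70 (SE 0.20, adjusted p = 0.0206) on aspen and -0.65 (SE 0.20, adjusted p = 0.0289) on pine, and 135403 had differences of 0.12 and 0.09. The 5 thiolases thus held 1 called decrease on both woods, 1 called increase on pine and 3 models without a call.

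Acyl-CoA-binding proteins carry acyl-CoA in the cytosol and acyl-CoA thioesterases release the free fatty acid. The 3 binding-protein members and the 1 thioesterase were called in no comparison. The binding protein 85518 averaged 445 ± 34.3 RPKM (SD, n = 3) on glucose, 399 ± 11.5 RPKM (SD, n = 3) on Avicel, 377 ± 53.3 RPKM (SD, n = 3) on aspen and 474 ± 35.0 RPKM (SD, n = 3) on pine. Its largest log2 difference, pine against aspen, was 0.34 (SE 0.14, adjusted p = 0.641). An unlabelled model on the same strand covers all 585 bp of 85518, whose value is uncertain for that reason.

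The word acyl-CoA also took 7 models labelled acyl-CoA N-acyltransferase, a fold of enzymes that acetylate amino groups and are not enzymes of fatty acid breakdown. Model 27787 read 54.8, 62.8 and 47.2 RPKM on glucose, 66.9, 57.7 and 51.2 on Avicel, 108, 118 and 105 on aspen and 145, 168 and 129 on pine. The woods did not overlap with glucose or Avicel. It rose on pine by a log2 change of 1.41 (SE 0.15, adjusted p = 4.21e-05), and on aspen its 1.00 (SE 0.15, adjusted p = 0.000493) was just short of 2-fold before rounding, and it reached 2-fold without glucose replicate 1 or 2 or aspen replicate 1 or 3 (1.00 to 1.10), with a pseudocount of 0.1 (1.01), with median centring (1.10) and with quantile normalization (1.08).

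Model 140707 fell from 61.6, 71.2 and 85.3 RPKM on glucose to 42.6, 30.6 and 32.6 on aspen and 39.4, 31.2 and 24.7 on pine, with no overlap between glucose and the woods. The log2 change in level was -1.02 (SE 0.24, adjusted p = 0.00878) on aspen and -1.18 (SE 0.24, adjusted p = 0.00389) on pine, and the aspen change was under 2-fold without glucose replicate 3 (-0.90), aspen replicate 2 (-0.93) or aspen replicate 3 (-0.98). With median centring or quantile normalization the aspen call of 140707 was lost as well. Model 65288 was lower on aspen by -1.55 (SE 0.49, adjusted p = 0.0366), a call that did not survive leaving out any 1 glucose or aspen replicate (adjusted p from 0.0511 to 0.139). Without these 7 models, 17 members were called on aspen against glucose, 11 higher and 6 lower.

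Several members lay side by side. On scaffold 13, esterases 108309 and 146135 are 2565 bp apart with no model between them, and 140245 follows 12309 bp further, behind 6 other models. Of these, 108309 and 140245 were called on both woods against glucose, 146135 was not, and the next esterases, 20391 and 146141, were too low to test. On scaffold 11, esterases 166132 and 133791 are 1029 bp apart, and 166132 was called on both woods while 133791 was not called against glucose. Class 3 lipases 105286, 123737 and 123741 are neighbours on scaffold 8, of which 123737 was called, 123741 was not, and 105286 was too low to test.

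Crotonase-fold models 15142 and 94935 lie 3003 bp apart on the same strand of scaffold 1. Model 15142 read 1.61, 1.11 and 1.16 RPKM on glucose, 2.04, 1.45 and 2.77 on Avicel, 3.33, 1.18 and 5.63 on aspen and 3.25, 1.62 and 8.20 on pine, with replicate 2 lowest in both woods as in 94935. Its log2 difference of 1.04 (SE 0.45, adjusted p = 0.108) on pine against glucose was not called with all libraries, and was called without pine replicate 2 (1.45, adjusted p = 0.0386) and with quantile normalization (1.203, adjusted p = 0.0475). The acyl-CoA dehydrogenase models 140480 and 82207 on scaffold 14 are 152 bp apart, and their log2 differences against glucose were 0.47 and 0.50 on aspen and 0.46 and 0.30 on pine, none called.

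**Figure D4:**
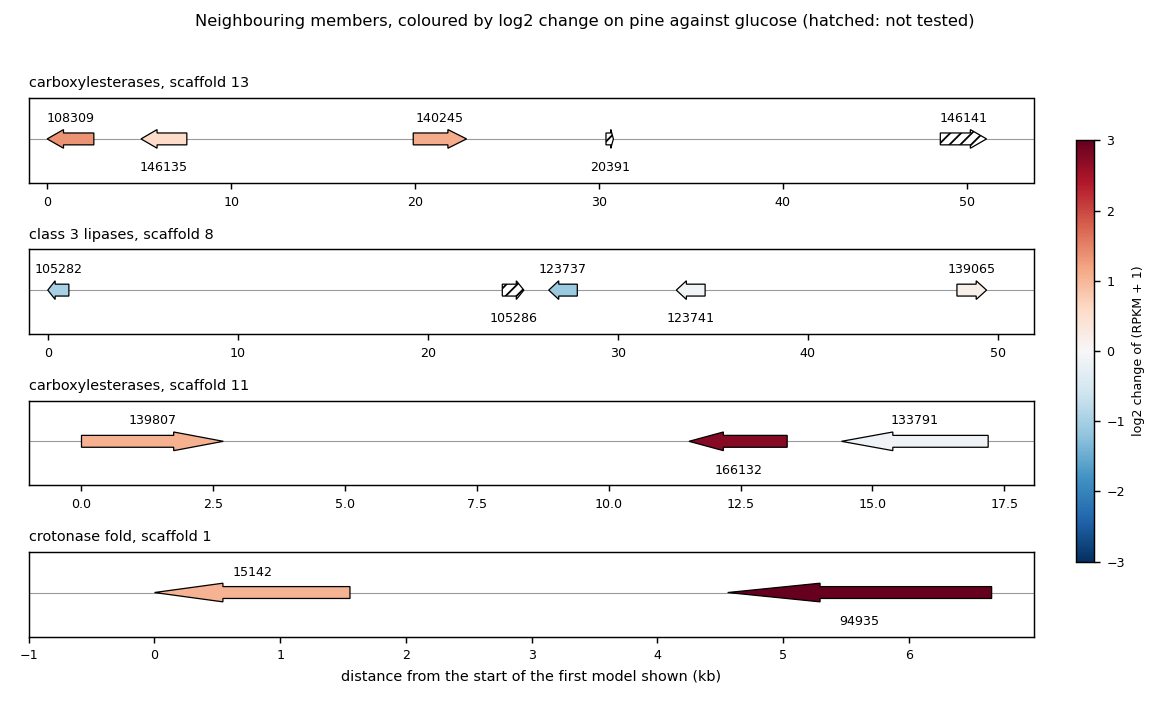
Neighbouring members on 4 scaffolds, drawn as arrows in the direction of their strand against the distance in kb from the start of the first model (x axis, scales differ between panels), with colour giving the log2 change of (RPKM + 1) on pine against glucose. Only groups of neighbours of the same role that held a model called on aspen or pine against glucose are drawn. The share of called models in the figure follows from that choice. Esterases 108309 (1.34), 139807 (1.06), 140245 (1.11) and 166132 (2.73) and crotonase-fold model 94935 (3.04) were called higher, lipase 123737 (-1.10) lower, and hatched models were not tested.

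A signal peptide probability was listed for 22 of the 93 members (23.7%), against 8.17% of all models, and for the members it ranged from 0.971 to 1. A signal peptide marks proteins that enter the secretory pathway. These were 11 of the 20 carboxylesterases, 9 of the 16 lipases, GDSL lipase 135938 and lysophospholipase 22757, and no enzyme of β-oxidation or desaturase had a value. Of the 20 tested members with a value, 4 were called higher and 4 lower on aspen against glucose, and 5 higher and 3 lower on pine. Of the 66 tested members without one, 7 were higher and 4 lower on aspen, and 6 were higher and 2 lower on pine. Among all tested models, 20.8% of the 913 with a value were called on aspen (128 higher and 62 lower) and 21.2% on pine (132 higher and 62 lower), and 10.9% of the 9271 without one on either wood.

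Mass spectrometry scored 18 of the 93 members, with 1 emPAI score per medium and so no replicate error. The emPAI score estimates the amount of a protein from the number of its peptides seen relative to the number that could be seen, and the deposited scores sum to the same 458.56 on each medium over 704 proteins, so they are scaled between media and do not follow the peptide count alone. Of the 18, 9 had a score above 0 on glucose, 6 on Avicel, 16 on aspen and 15 on pine. Over all 704 scored proteins the shares above 0 were 61.9, 35.8, 82.4 and 72.9%, and over the members they were 50.0, 33.3, 88.9 and 83.3%. The members' summed emPAI was 2.9 on glucose, 2.69 on Avicel, 8.11 on aspen and 7.86 on pine, from 28, 19, 88 and 80 peptides.

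Thiolase 138750 had the highest score of the members, 0.58 on glucose, 0.39 on Avicel, 1.77 on aspen and 1.44 on pine. Lipase 136660 scored 0.33, 0.93, 1.37 and 1.15 in that order of media, from 2, 3, 5 and 4 peptides, and esterase 23093 scored 0.19, 0.74, 0.84 and 1.12. Both thus scored lowest on glucose, as the transcript of 136660 did, whereas the transcript of 23093 was lowest on Avicel, at 166 ± 12.5 RPKM (SD, n = 3) against 200.2 ± 12.3 RPKM (SD, n = 3) on glucose. Of the 18, 9 were scored on wood alone (50.0%), against 242 of all 704 (34.4%). Both woods gave a score for 7 of the 9, and for 97 of the 242.

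Lysophospholipase 22757, GDSL lipase 135938 and esterase 140245 were scored on both woods alone and their transcripts were called higher on both. Lysophospholipase 22757 scored 0.447 on aspen and 0.313 on pine from 6 and 5 peptides, and 135938 scored 0.16 and 0.182 from 2 peptides on each. Esterase 95246 was scored on both woods alone as well (0.185 and 0.308), although its transcript fell on both. Thiolase 129844 was scored on glucose alone, at 0.162 from 2 peptides, and its transcript was highest on glucose. Desaturases and N-acyltransferase-fold models had no score, and of the 13 crotonase-fold and 3-hydroxyacyl-CoA members only 22787 had one, 0.102 on aspen.

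**Figure D5:**
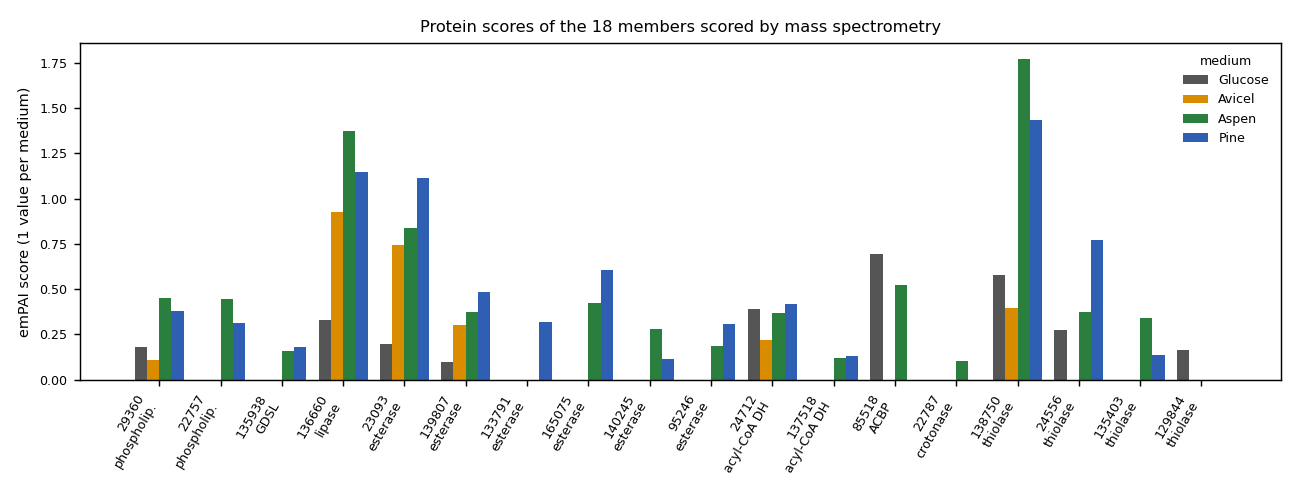
Deposited emPAI score (y axis) of the 18 scored members (x axis, model and enzyme type), with 1 bar per medium and no error because there is a single value per medium. Thiolase 138750 (1.77 on aspen) and lipase 136660 (1.37 on aspen) had the highest scores, and 9 of the 18 have bars on wood only.

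Other genes of lipid and acetyl-CoA metabolism, taken by label words, were 82 models, 79 of them tested. On aspen against glucose 6 were called higher and 5 lower, and on pine 4 higher and 7 lower, which is 13.9% of the list on each wood, near the 11.8% of all tested models. Of 32 tested models of the AMP-dependent synthetase and ligase family, which includes the acyl-CoA synthetases that activate fatty acids, 5 were higher and 3 lower on aspen, and 4 higher and 3 lower on pine. None of the tested models labelled for malate synthase, carnitine acyltransferases, citrate synthase or citrate lyase, carboxyl transferase or fatty acid elongase was called in these comparisons. The carboxyl transferase model, 69799, was taken by that word, and no model of the list was labelled acetyl-CoA carboxylase. Of 7 peroxisome models 1 was called higher on aspen, peroxisomal membrane protein 135122 with a log2 change of 1.12 (SE 0.23, adjusted p = 0.00461), which fell under 2-fold without glucose replicate 1 (0.98).

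The largest decrease in that list was AMP-dependent synthetase 145952. It read 807, 843 and 664 RPKM on glucose, 401, 535 and 518 on Avicel, 75.5, 18.9 and 32.0 on aspen and 31.1, 15.3 and 42.6 on pine. The wood libraries were all far below the other 6. Its change on the log2 scale was -4.38 (SE 0.43, adjusted p = 3.08e-05) on aspen and -4.76 (SE 0.43, adjusted p = 1.45e-05) on pine against glucose. In the same family, 80393 rose on both woods, by 1.11 (SE 0.24, adjusted p = 0.0063) on aspen and 1.09 (SE 0.24, adjusted p = 0.007) on pine, calls that fell under 2-fold without aspen replicate 2 (0.90), pine replicate 1 (0.95) or pine replicate 2 (0.98), and 135636 rose on pine by 1.81 (SE 0.32, adjusted p = 0.00165).

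Among the lipid-building models, phosphatidylserine decarboxylase-related model 156209, of a family that makes phosphatidylethanolamine, read 222, 208 and 180.4 RPKM on glucose, 71.7, 55.8 and 63.4 on aspen and 78.0, 53.5 and 77.6 on pine. It fell by a log2 change of -1.66 (SE 0.18, adjusted p = 6.16e-05) on aspen and -1.55 (SE 0.18, adjusted p = 0.000104) on pine, with no overlap between glucose and the woods. The phospholipid/glycerol acyltransferase 153016, of a family that adds fatty acids to glycerol phosphate, fell by -2.04 (SE 0.37, adjusted p = 0.00209) on aspen and -2.00 (SE 0.37, adjusted p = 0.00231) on pine, from 5.39 ± 1.73 RPKM (SD, n = 3) on glucose. Most lipid-building models were not called. Of 6 tested decarboxylase and CDP-alcohol phosphatidyltransferase models, only 156209 was called on the woods against glucose. Their median log2 change was -0.083 on aspen and -0.058 on pine. Of 13 tested acyltransferases of glycerolipids, 1 was called lower on aspen and 2 on pine. The medians of these 13 were -0.034 on aspen and 0.004 on pine. Of the 4 models with an isocitrate lyase and phosphorylmutase label, a family that holds the glyoxylate cycle enzyme, 23619 rose on Avicel against glucose by 1.03 (SE 0.20, adjusted p = 0.0193), the single call in the list for that comparison. That call did not survive leaving out glucose replicate 2 or 3 or Avicel replicate 1 (adjusted p of 0.0573, 0.0552 and 0.0513). On the woods against Avicel, 23619 fell by a log2 change of -1.27 (SE 0.20, adjusted p = 0.00177) on aspen and -1.22 (SE 0.20, adjusted p = 0.00177) on pine.

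Model 92053, of the same label, read 2520.4, 672 and 892 RPKM on glucose, 1889.7, 1471 and 2785 on Avicel, 281, 129.6 and 255 on aspen and 223, 12.4 and 337 on pine. All wood libraries were below all glucose and Avicel libraries, and pine replicate 2 was the lowest of the 12. The log2 change against glucose was -3.51 (SE 0.96, adjusted p = 0.0197) on pine, which was called, and -2.44 (SE 0.96, adjusted p = 0.0841) on aspen, which was not, and the pine call did not survive leaving out glucose replicate 1 (-2.95, adjusted p = 0.0782). Against Avicel the log2 change was -3.23 (SE 0.96, adjusted p = 0.0412) on aspen and -4.30 (SE 0.96, adjusted p = 0.00973) on pine, both called, and the aspen call did not survive leaving out glucose replicate 2 or 3 or any 1 Avicel or aspen replicate (adjusted p from 0.0518 to 0.128). The other 2 models of that label were called in no comparison.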

How the data were processed

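RNA of 12 cultures, 3 for each of 4 carbon sources, was sequenced as single reads of 100 bp, per the labels. The authors deposited 1 value per model and library, taken here as RPKM from the size and spacing of the values, since no header names the unit. The submitters' processing notes list CASAVA 1.8.2. For the aligner, counting tool, strand setting and build, the sources used here give no name. Coordinates follow the deposited table. For each medium the authors deposited 1 emPAI score and 1 peptide count per protein. The deposited signal peptide probability, a fraction, was given for 1041 models. No sequence was used.

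The members and the gene lists were chosen with earlier results of these data known. Values were tested as log2(RPKM + 1) with limma 3.58.1 (trended variance, two-sided) in R 4.3.3, in 1 fit over all 12 libraries (8 residual degrees of freedom, prior 3.6), for the 10184 models whose mean reached 1 RPKM on some medium. The pseudocount of 1 understates changes of low models. A call needed an adjusted p under 0.05 over all tested models and a fold of at least 2. The fitting was tested on simulated data. Replicate libraries correlated at r of 0.959 to 0.985 over tested models, and each is a separate culture per the labels. Depth came from the steps that whole reads leave in low values multiplied by model span, where 68 to 92 models per library lay on the first 3 steps. No count test was run. Members named are the 10 largest called changes per comparison, the most abundant of each role, all calls within a lane and the 10 highest emPAI scores, 32 in all; others named were chosen after their values were seen. Alternatives changed the pseudocount, low-value filter, scaling, fold threshold, samples fitted and replicate block, left out each library, or dropped the N-acyltransferase fold. Python 3.11.15 with pandas 2.3.3 and matplotlib 3.10.9 made the tables and figures.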

Additional observations from a re-analysis of the deposited data

How the results depend on the processing

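The number of called members on Avicel against glucose, 0 with all libraries, was 1 with a pseudocount of 5, 1 with a minimum of 5 RPKM, 2 with median centring, 2 when only the 2 groups were fitted and 1 with no fold threshold. Over all tested models, the higher and lower calls were 98 and 72 before these changes. In those alternatives, in that order, they were 80 and 53, 100 and 70, 116 and 42, 102 and 60, and 123 and 192. Aspen against glucose gave 11 in place of 19 with a pseudocount of 5, and without a fold threshold the counts were 34 on aspen and 32 on pine against glucose and 21 and 26 against Avicel. All tested models moved too, with 404 higher and 424 lower on aspen at that pseudocount, in place of 534 and 668. The members whose aspen call was lost at that pseudocount were 166132, 140707, 130286, 130127, 123737, 105282, 81934 and 22804. Without a fold threshold, 1021 were higher and 1668 lower on aspen and 1019 and 1717 on pine against glucose. Against Avicel they were 1025 and 636 on aspen and 1185 and 795 on pine. Pine against Avicel gave 7 in place of 12 when only the 2 groups were fitted, where all tested models gave 398 higher and 358 lower in place of 464 and 455. Leaving out 1 library at a time gave 0 to 2 members for Avicel against glucose, 13 to 19 for aspen and 12 to 16 for pine against glucose, 7 to 11 for aspen and 8 to 12 for pine against Avicel, 0 to 1 for pine against aspen, and 24 to 37 of 40 for the F test. Over all tested models those fits gave 52 to 118 higher and 41 to 102 lower for Avicel against glucose. Aspen against glucose gave 477 to 556 higher and 554 to 685 lower, and pine 532 to 579 and 506 to 700. Against Avicel, aspen gave 293 to 390 and 271 to 496, and pine 411 to 493 and 345 to 542. Pine against aspen gave 4 to 22 higher and 0 to 4 lower. The cause of these changes was not tested, apart from the fewer libraries and the fold limit that the alternatives themselves set.

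Replicate numbers did not clearly pair the libraries: 7 of 18 same-numbered pairs had a correlation of deviations over 0.1 (range -0.418 to 0.437). However, 7 of 12 libraries correlated best with their own number, so these values do not exclude a weak pairing. With the replicate block the counts were 2 for Avicel, 19 for aspen and 18 for pine against glucose, 8 for aspen and 12 for pine against Avicel, 0 for pine against aspen and 35 for the F test. Over all tested models the block gave 107 higher and 68 lower on Avicel, 541 and 689 on aspen and 583 and 647 on pine against glucose. Against Avicel it gave 369 higher and 410 lower on aspen and 470 and 474 on pine. Pine against aspen gave 16 higher and 5 lower. The 2 members called on Avicel against glucose were desaturases 136342 (adjusted p = 0.0331) and 124504 (adjusted p = 0.0451), and 15142 was called on pine against glucose with the block (1.04, adjusted p = 0.0335). Of 56 calls of a member in a comparison, 27 stood under every alternative, 31 stood in all 12 fits that left out 1 library, and 0 changed sign. Differences of members near the floor of 0.133 to 0.305 RPKM are not detectable at this depth, and the emPAI scores have no replicates.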

Other observations

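The summed RPKM of the 16 lipases other than phospholipases and GDSL lipases was 847 to 1031 in the glucose libraries, 1269.6 to 1521 on Avicel, 1602 to 2142 on aspen and 1249 to 2880.3 on pine. Every glucose library lay below every library of the other media. That sum rests largely on 136660, which made up from 49.6% (glucose replicate 3) to 84.2% (pine replicate 2) of it. The median log2 change of the 15 tested lipases was -0.05 on aspen and -0.091 on pine against glucose. The 6 desaturases summed to 649.7 to 723 RPKM on glucose, 966 to 2027 on Avicel, 799.7 to 1467 on aspen and 612 to 1039.5 on pine, with pine replicate 2 the lowest of the 12 libraries. The 9 acyl-CoA dehydrogenase or oxidase models summed to 303 to 346 RPKM on glucose and 400.3 to 454 RPKM on the 2 woods, with no overlap.

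The 86 tested members were also sorted by the medium with the highest mean, as a description without a test. Glucose was highest for 28 of them (32.6%; 47.9% of all tested models), Avicel for 11 (12.8%; 11.3%), aspen for 20 (23.3%; 20.4%) and pine for 27 (31.4%; 20.4%). Glucose was lowest for 28 (32.6%; 15.0% of all tested models), Avicel for 22 (25.6%; 36.0%), aspen for 25 (29.1%; 23.0%) and pine for 11 (12.8%; 26.0%).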
